A study of Saccharomyces cerevisiae with 28 samples.

Results

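The 137 open reading frames (ORFs) described here encode the proteins of the cytosolic ribosome of budding yeast, Saccharomyces cerevisiae. They were chosen by name alone, as the ORFs whose standard name in the authors' smaller table is RPL or RPS with a number, with or without A or B, or RPP0, RPP1A, RPP1B, RPP2A or RPP2B. They are 137 of the 6692 ORFs of the full table. Of them, 76 belong to the large subunit, 56 to the small subunit and 5 to the acidic stalk. The 118 ORFs with a partner form 59 pairs of an A and a B copy, and 19 are single-copy. An intron interrupts the coding sequence of 89, of which 84 are paired and 5 single-copy.

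Ribosomal proteins are assembled with ribosomal RNA into the large subunit, which forms peptide bonds, and the small subunit, which decodes mRNA. In yeast their genes are among the most highly transcribed by RNA polymerase II. Rap1 binds upstream of most of them and recruits Fhl1 with its coactivator Ifh1, while Sfp1, Hmo1 and the TOR and protein kinase A pathways tie their output to growth. Most of the paired copies come from a whole-genome duplication and encode identical or nearly identical proteins. The stalk pairs RPP1 and RPP2 are less alike, with coding identities of 68.9% and 74.0%.

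Poly(A)+ RNA was sequenced from strains of the BY4741 background, a MATa haploid S288C derivative, that carried either unaltered histone H3 or the allele H3H113N, in which a histidine of H3 is replaced by asparagine. Each H3 genotype was used alone, with a deletion of CTR1 (dCtr1, the high-affinity copper transporter) or with a deletion of CCS1 (dCcs1, the copper chaperone of the superoxide dismutase Sod1). WT, H3H113N, dCtr1 and H3H113N-dCtr1 were grown in YPD (rich glucose medium, 2 libraries each), and WT and H3H113N also in YPEG (rich ethanol and glycerol medium, 2 each) and in SC (synthetic complete medium, 3 each). dCcs1 and H3H113N-dCcs1 were grown in SC and in SC-lys, which lacks lysine (2 libraries each), and in SC-lys with 75 µM CuSO4 (1 each). YPD and YPEG cultures were started at an OD600 of 0.2 for 3 to 4 doublings and SC cultures at 0.05 for 5 doublings, all in exponential growth. SC-lys cultures started at 0.4 and stood for 24 h; the labels call their growth very slow in all but the dCcs1 culture with copper, and state that culture times often differed between strains. Nothing says that libraries of a group came from separate cultures, so p-values measure the spread between these libraries only, which may be technical.

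Total counts ran from 1168159 to 6738018 reads per library. CTR1 and CCS1 had at most 1 read in the libraries of their deletions. LEU2, MET17 and URA3, the auxotrophy markers of BY4741 that were checked, had 0 in all 28. All 5 listed MATa genes were detected, while the alpha-factor gene MF(ALPHA)1 ranged from 0 to 49 reads. In the average H3H113N effect edgeR called the 3 listed MATalpha genes higher (STE3 by 1.21 on the log2 scale; MF(ALPHA)2 was not called by DESeq2). All 5 MATa genes were below 0, from -0.58 for STE6, the 1 called (not with scaling to library totals), to -0.07 for MFA1, which was above 0 with scaling to library totals or with chromosomes centred. The part of these shifts in the results below was not tested. WT-SC replicate 3, H3H113N-YPEG replicate 1 and H3H113N-dCcs1-SC-lys replicate 2 each held the highest or the lowest A over B ratio of all 28 libraries in 12 of the 59 pairs. SC results are also given without replicate 3 where that changes them. One kit served the 14 YPD and lysine-free libraries, copper included, and another the 14 YPEG and SC libraries, so levels in YPD or SC-lys and those in YPEG or SC differ in both medium and kit, which cannot be told apart. Media are tested below only between YPEG and SC.

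How well the data separate 2 copies depends on their sequence, which is shown for a distinguishable and an indistinguishable pair. The lines give bases 61 to 180 of the spliced coding sequence from the RefSeq annotation of assembly R64, with the bases that differ between A and B in capitals. RPS9A lies on chromosome XVI and RPS9B on II, and RPL1A on XVI and RPL1B on VII.
RPS9A: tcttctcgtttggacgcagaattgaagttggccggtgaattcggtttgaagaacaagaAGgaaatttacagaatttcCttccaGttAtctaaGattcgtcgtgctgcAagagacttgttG
RPS9B: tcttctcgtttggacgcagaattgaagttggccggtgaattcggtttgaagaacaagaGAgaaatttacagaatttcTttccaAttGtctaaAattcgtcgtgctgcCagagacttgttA
RPL1A: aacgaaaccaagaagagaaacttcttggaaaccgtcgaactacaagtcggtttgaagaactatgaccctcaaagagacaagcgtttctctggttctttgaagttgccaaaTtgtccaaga
RPL1B: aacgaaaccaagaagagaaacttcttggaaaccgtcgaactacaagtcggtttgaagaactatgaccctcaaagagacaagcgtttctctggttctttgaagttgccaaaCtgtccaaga

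RPS9A and RPS9B, copies of a small-subunit protein that binds early to the ribosomal RNA, differed at 8 of these 120 bases, and RPL1A and RPL1B, which form part of the L1 stalk of the large subunit, at 1. Over their whole coding sequences the identities were 91.1% and 99.4%. In RPS9A 95.0% of the 50-nt windows, the length of a read, occurred once in the genome, against 19.0% in RPL1A and in RPL1B. Over all pairs coding identity ran from 68.9% to 99.4%. In 33 of the 59 pairs both copies had at least 90% unique windows, and 85 of the 137 ORFs reached that value. How reads from shared windows were assigned is not given in the sources used here, so values of the other 26 pairs are uncertain between A and B.

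Upstream sequences are shown because Rap1 is the factor that marks these genes. A short form of the Rap1 consensus, ACACCC followed by any 2 bases and ACA, was searched on both strands in the 500 bases before the coding start. It occurred before 19 of the 137 ORFs (13.9%) and before 0.936% of all 5986 ORFs with such a window. The strict spelling misses other forms of the site. The 30-base lines give the match in capitals on the coding strand of each gene, in assembly R64.
RPL8A: tatgaagaaaACACCCAAACAtatctaggc
RPL13A: tttttcaacaTGTATGGGTGTtttttctga
RPL14A: cagcgcaaatACACCCATACActattttta
RPL22B: ctccatgtcaACACCCGTACAtattcagag
RPL34B: taccgtgtgtTGTTTGGGTGTtttcctttc

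These windows lie at chrVIII:36247-36276 (RPL8A, minus strand), chrIV:308133-308162 (RPL13A, plus), chrXI:431484-431513 (RPL14A, plus), chrVI:65160-65189 (RPL22B, minus) and chrIX:257496-257525 (RPL34B, minus). The match of RPL8A begins 241 bases before the coding start and that of RPL34B 452 bases before it. A motif associated with Fhl1, GACGCA, occurred before 15.3% of the 137 ORFs and before 10.9% of all ORFs. AAAATTTT, the core of the ribosomal RNA processing element of assembly genes, occurred before 12.4% of both. GCGATGAG, the PAC motif of the same assembly genes, occurred before 1 of the 137 ORFs (0.730%) and before 4.84% of all. None of the 4 spellings contains another.

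RPL8A and RPS10B held both a Rap1 match and a GACGCA match within 300 bases of the coding start, and their upstream windows show the arrangement. Each line is the 180 bases that begin 300 bases before the coding start, at chrVIII:36146-36325 on the minus strand and chrXIII:732114-732293 on the plus strand, with both motifs in capitals. In RPS10B both are read on the opposite strand.
RPL8A: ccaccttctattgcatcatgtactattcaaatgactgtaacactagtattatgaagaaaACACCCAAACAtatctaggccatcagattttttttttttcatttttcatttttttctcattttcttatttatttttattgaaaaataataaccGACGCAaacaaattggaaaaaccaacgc
RPS10B: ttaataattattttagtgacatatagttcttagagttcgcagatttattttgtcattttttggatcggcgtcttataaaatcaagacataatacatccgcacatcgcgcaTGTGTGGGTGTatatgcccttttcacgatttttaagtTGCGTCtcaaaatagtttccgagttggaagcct

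Both genes were among those that fell with H3H113N. On average over the 6 settings described below, RPL8A changed by -0.87 ± 0.13 (SE, log2; adjusted p = 9.15e-05, edgeR) and RPS10B by -0.60 ± 0.14 (adjusted p = 0.00399). The 19 ORFs with a Rap1 match had a median average effect of -0.66 and the 118 without one -0.71, with 16 and 106 called lower. The difference between them was not tested.

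Levels per length differed widely among these genes. RPKM, the authors' read count scaled to exon length and library total, had the highest means over the 28 libraries for RPS31 (4865), RPS26A (3521), RPS15 (3389.6) and RPL3 (3174), among those given here. RPS31 encodes a small-subunit protein made as a fusion with ubiquitin, RPL3 a protein near the peptidyl transferase centre, and RPS26A a protein at the mRNA exit. The lowest were RPL22B (146), RPL15B (160.1), RPL41B (164), RPL41A (174) and RPS9A (181), each the lower copy of its pair or one of the RPL41 copies. RPL41A and RPL41B, the shortest coding sequences at 78 bases, ranged from 8.45 to 694 and from 13.8 to 618 RPKM. Their SD between replicates was 1.69 and 1.45 on the log2 scale, against a median of 0.29 for the 129 ORFs of 200 bases or more, so their values are of little use for comparison.

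The 137 ORFs took a smaller share of the counted reads in every H3H113N group than in the matching strain with wild-type H3. In YPD the share was 14.7% and 16.2% in WT and 13.6% and 11.3% in H3H113N. In YPEG it was 7.40% and 10.1% in WT and 4.98% and 6.57% in H3H113N. Groups did not overlap in either medium.

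With CTR1 deleted, the share in YPD was 11.7% and 13.0% with wild-type H3 and 9.52% and 8.37% with H3H113N. With CCS1 deleted, it was 12.4% and 12.3% against 9.42% and 10.6% in SC, and 10.8% and 8.56% against 6.02% and 5.08% in SC-lys. In SC without a deletion the groups overlapped, at 11.2%, 14.7% and 8.54% in WT and 9.78%, 11.7% and 8.34% in H3H113N, where replicate 3 was the lowest of each group. Within each of these 3 pairs of the same replicate number the share was lower in H3H113N. A share falls when these mRNAs fall or when others rise, and in bulk libraries fewer cells of a type and less RNA per cell cannot be told apart.

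**Figure D1:**
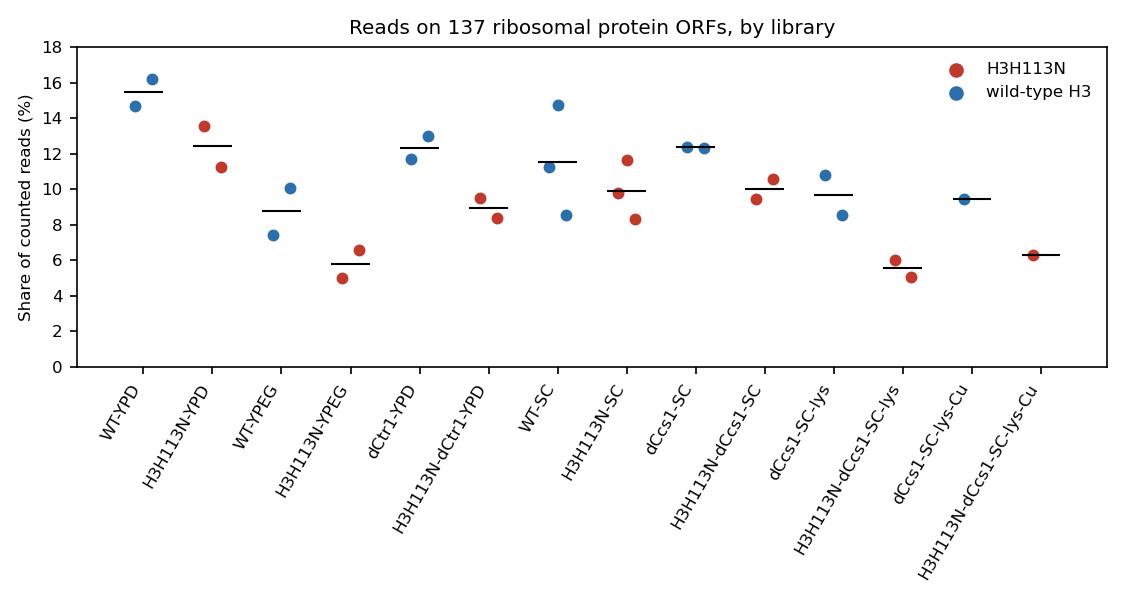
Share of all counted reads that fell on the 137 ribosomal protein ORFs (y axis, percent) in each of the 28 libraries, by group (x axis); blue points are strains with wild-type H3, red points H3H113N, and lines are group means. The means run from 5.55% in H3H113N-dCcs1-SC-lys to 15.4% in WT-YPD, and only in SC without a deletion do a red group and its blue partner overlap.

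Gene by gene, nearly all ribosomal protein ORFs fell with H3H113N when the 6 settings were averaged. The edgeR quasi-likelihood test called 122 of the 137 lower and 0 higher at an adjusted p under 0.05, beside 15.2% of all 6592 tested ORFs called lower, 18.5% called higher and 33.8% called either way. The median log2 change was -0.70 for the 137 and 0.00 for all tested ORFs. The size of such changes depends on the scaling of the libraries. HMO1 and ASC1, which are outside the 137, were at -0.95 and -0.87 in this average. With scaling to library totals they were at -0.75 and -0.68. In all 6 settings taken singly, 116 of the 137 were below 0, against 17.4% of all tested ORFs. RPL23A and RPL41A, with 3 settings below 0, had the fewest.

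Among the largest average falls were those of RPS9A at -1.13 ± 0.13 (adjusted p = 9.22e-06), RPL26B at -0.98 ± 0.14, RPL27B at -0.93 ± 0.14, RPL26A at -0.92 ± 0.11 and RPS19B at -0.91 ± 0.13. RPL26 sits near the exit tunnel of the large subunit, and RPS19 is a head protein of the small subunit. The most abundant genes fell by similar amounts: RPS31 by 0.77, RPS15 by 0.73, RPL3 by 0.72 and RPS26A by 0.70. All 5 stalk genes were called, from -0.76 for RPP2B to -0.88 for RPP0, the base to which the acidic proteins bind.

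Subsets with different gene structure had medians close to each other in the average. Large-subunit ORFs had a median of -0.68 (65 of 76 called lower) and small-subunit ORFs -0.71 (52 of 56). ORFs with an intron had -0.69 (81 of 89) and those without -0.73 (41 of 48). Paired ORFs had -0.69 (106 of 118) and single-copy ORFs -0.73 (16 of 19). The higher copy of each pair had -0.69 and the lower copy -0.70, with 53 of 59 called in both.

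In single settings most ORFs were below 0, but at most 1 passed the test in any setting other than SC-lys. Median log2 changes were -0.56 in YPD, -0.74 in YPEG, -0.42 in SC, -0.73 for H3H113N-dCtr1 against dCtr1 in YPD, -0.56 for H3H113N-dCcs1 against dCcs1 in SC and -1.17 for the same strains in SC-lys. Below 0 were 135, 135, 127, 133, 122 and 137 of the 137 ORFs. Of all 6592 tested ORFs, 48.7%, 49.7%, 53.6%, 51.5%, 50.0% and 50.2% were below 0. With each library left out, the medians of the 137 ran from -0.74 to -0.41 in YPD and -0.99 to -0.46 in YPEG. In SC they ran from -0.61, without WT replicate 3, to -0.23. They ran from -0.91 to -0.53 for the dCtr1 strains. For the dCcs1 strains they ran from -0.58 to -0.49 in SC and -1.38 to -0.98 in SC-lys. Differences between the settings in these medians were not tested.

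**Figure D2:**
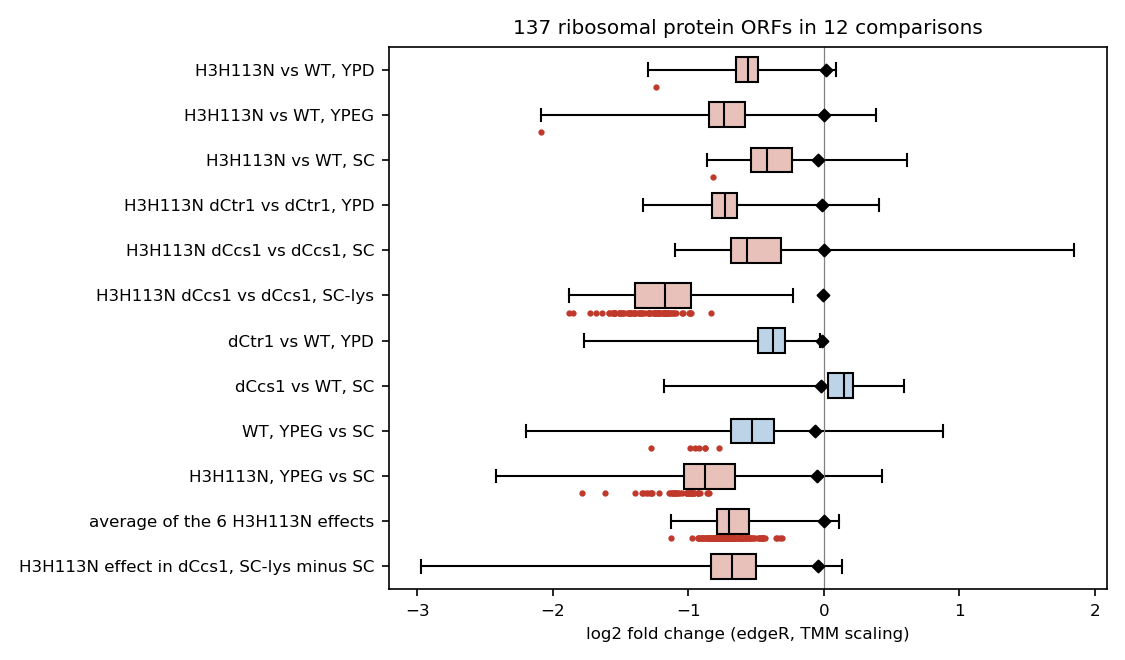
Log2 fold changes (x axis) of the 137 ribosomal protein ORFs in 12 comparisons (y axis), with boxes for quartiles, whiskers for the full range, black diamonds for the median of all 6592 tested ORFs and red dots under a box for ORFs called by edgeR. Boxes in red involve H3H113N, and that of H3H113N-dCcs1 in SC-lys has its median at -1.17 and 85 called ORFs. The box of dCcs1 against WT in SC lies around 0.15, a median that was -0.06 without WT-SC replicate 3.

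In YPD, RPS22B was the 1 ribosomal protein ORF called, beside 1.24% of all ORFs. This copy of a small-subunit body protein had 516 and 464 RPKM in WT and 293 and 187 in H3H113N, so the groups did not overlap (log2 change -1.23 ± 0.23, adjusted p = 0.0113). Its partner RPS22A had 1935 and 2257 in WT and 2007 and 1489 in H3H113N, with overlap (-0.48 ± 0.38, adjusted p = 0.676). The call was lost without either WT library or without H3H113N replicate 2.

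RPS22B was also the 1 ORF called in SC, beside 1.59% of all. It had 534, 622 and 458 RPKM in WT and 313, 388 and 371 in H3H113N, again without overlap (-0.82 ± 0.19, adjusted p = 0.0338). With replicate number as a block, which pairs the libraries in SC, 3 ORFs were called in place of 1. Without replicate 3 of both groups, with each chromosome centred, or with scaling to library totals, the count was 0. It was 3 without WT replicate 3 alone and 0 without any 1 of the other 5 libraries.

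In YPEG, RPS9A was the 1 ORF called, beside 1.03% of all. It had 345 and 222 RPKM in WT and 56.9 and 79.1 in H3H113N, a gap larger than either spread (-2.09 ± 0.35, adjusted p = 0.0105). RPS9B had 1675 and 2440.4 in WT and 1279.9 and 2160.2 in H3H113N, with overlap (-0.31 ± 0.32, adjusted p = 0.674). The call was lost without replicate 1 of either group.

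No ribosomal protein ORF passed in the other exponential settings by edgeR. For H3H113N-dCtr1 against dCtr1 in YPD, 0 of 137 were called beside 2.18% of all ORFs, and DESeq2 called 5. An unadjusted p under 0.05 was found in 79 of the 137 and in 839 of all 6592. For H3H113N-dCcs1 against dCcs1 in SC, 0 were called beside 1.24% of all, and DESeq2 called 0. An unadjusted p under 0.05 was found in 44 of the 137 and in 888 of all 6592.

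In SC-lys, where the labels give very slow growth for both strains, H3H113N-dCcs1 had 85 of 137 ribosomal protein ORFs lower than dCcs1 and 0 higher, beside 5.57% of all ORFs called lower, 5.16% called higher and 10.7% called either way. The 6 largest falls were RPL9A, RPS9A, RPL26B, RPP0, RPP2A and RPS2. RPL9A, near the base of the stalk, went from 1122 and 839 RPKM to 382 and 278 (-1.88 ± 0.38, adjusted p = 0.00459). RPS9A went from 264 and 215 to 92.4 and 72.1 (-1.85 ± 0.34, adjusted p = 0.00296). RPP0 went from 2539 and 2305 to 1082 and 789 (-1.68 ± 0.30, adjusted p = 0.00234). None of these groups overlapped.

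RPP2A had 1575 and 1363 RPKM in dCcs1 and 647 and 523 in H3H113N-dCcs1 (-1.64 ± 0.26, adjusted p = 0.000947). All 5 stalk ORFs were called in this setting, with RPP1A at -1.25 and RPP2B at -1.22 the smallest. RPS2, which lines the mRNA entry channel, had 3068 and 2542 against 1252 and 1059 (-1.59 ± 0.32, adjusted p = 0.00456). RPL26B had 1213 and 895 against 438 and 351 (-1.72 ± 0.36, adjusted p = 0.00519).

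The count of 85 rests on the spread shared over all 26 libraries: fitted on the 4 libraries alone, edgeR called 0 of any ORF, and scaling to library totals gave 46. The count was 4 without H3H113N-dCcs1 replicate 2, 27 without its replicate 1, and 24 and 45 without dCcs1 replicates 1 and 2. The change of the H3H113N effect between SC-lys and SC in dCcs1 strains had a median of -0.68, but 0 of the 137 were called, beside 0.0455% of all, and 0 by DESeq2. An unadjusted p under 0.05 was found in 20 of the 137 and in 322 of all 6592. A larger fall in SC-lys than in SC is therefore not shown for any 1 gene. The pairs of unique sequence whose copies differed most in this change were RPL22 (-0.89 for A and -0.09 for B), RPL13 (-0.10 and -0.87), RPS18 (-0.91 and -0.45), RPL8 (-0.25 and -0.70), RPP2 (-0.98 and -0.55) and RPL43 (-0.64 and -1.07). Leaving out 1 library at a time changed the sign of RPL22B (-0.62 without dCcs1-SC-lys replicate 2, 0.74 without replicate 1) and of RPL13A (-0.37 and 0.22 without the same libraries). RPL8A was at -0.65 without H3H113N-dCcs1-SC replicate 2 and 0.31 without replicate 1. RPS18B ran from -0.69 to -0.16 and RPL43A from -0.93 to -0.28. The ranges of the 2 partners overlapped in RPS18, RPL8 and RPL43 and did not overlap in RPL22, RPL13 and RPP2. RPL13B ran from -1.03 to -0.69, RPP2A from -1.17 to -0.82 and RPP2B from -0.70 to -0.41. The differences between partners were not tested.

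The ORFs that stood out from the common fall lay mostly on chromosomes II and V. Of the 15 not called in the average effect, 9 are among the 16 ORFs on these chromosomes, where 7 were called, against 115 called of 121 elsewhere. Median average effects were -0.22 for the 10 ORFs on II, -0.34 for the 6 on V and -0.72 for the other 121. RPL19A and RPL19B, both on II, were at -0.07 and -0.17, RPL32 on II at -0.17, RPL23A on II at -0.16, RPS8A on II at -0.20 and RPS8B on V at -0.23. The remaining 6 uncalled ORFs were RPL41A and RPL41B, RPL29 and RPL39, 4 of the 8 ORFs with a coding sequence under 200 bases, and the lower copies RPL22B and RPS28B.

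ORFs that do not encode ribosomal proteins were shifted in the same libraries and on the same chromosomes. Relative to the libraries with wild-type H3 in the same medium, the median ORF of chromosome II was higher by 0.40 ± 0.05 (SD, n = 2, log2) in H3H113N-YPD, by 0.45 ± 0.04 (n = 3) in H3H113N-SC and by 0.70 ± 0.02 (n = 2) in H3H113N-dCcs1-SC-lys. On chromosome V it was higher by 0.49 ± 0.05 (n = 2) in H3H113N-YPD and by 0.70 ± 0.02 (n = 2) in H3H113N-dCtr1-YPD. In H3H113N-SC it was higher by 0.44 ± 0.28 (n = 3), with replicate 1 at 0.11 and replicates 2 and 3 at 0.59 and 0.61. It was higher by only 0.04 ± 0.05 (n = 2) in both H3H113N-dCcs1 groups. Among ribosomal protein ORFs, those on II had a median of 0.07 and those on V of -0.55 for H3H113N-dCcs1 in SC. For H3H113N-dCtr1 in YPD the order was the opposite, with -0.59 on II and -0.01 on V.

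RPS14A is the 1 ribosomal protein ORF on chromosome III, and is named here after its values were seen. This copy of a platform protein of the small subunit had 2069 and 2271 RPKM in dCtr1-YPD and 3615 and 3056 in H3H113N-dCtr1-YPD. Its partner RPS14B, on X, had 477 and 505 against 339.7 and 329. Both copies have 88.0% unique windows. The copies thus moved apart without overlap in either, with changes of 0.41 ± 0.31 (adjusted p = 0.73) and -0.76 ± 0.28 (adjusted p = 0.221) that did not pass the test. The median of other ORFs on chromosome III was 1.08 ± 0.02 (SD, n = 2) higher in H3H113N-dCtr1-YPD.

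When every chromosome was centred on its ORFs that encode no ribosomal protein, the ORFs on II and V fell like the rest. The median average effect became -0.69 for the 16 ORFs on II and V, all of them called lower, and -0.66 for the other 121, of which 114 were called. In all, 130 ORFs were called, 121 of them among the 122 called without centring. RPS14A and RPS14B in the dCtr1 strains became -0.67 and -0.80.

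**Figure D3:**
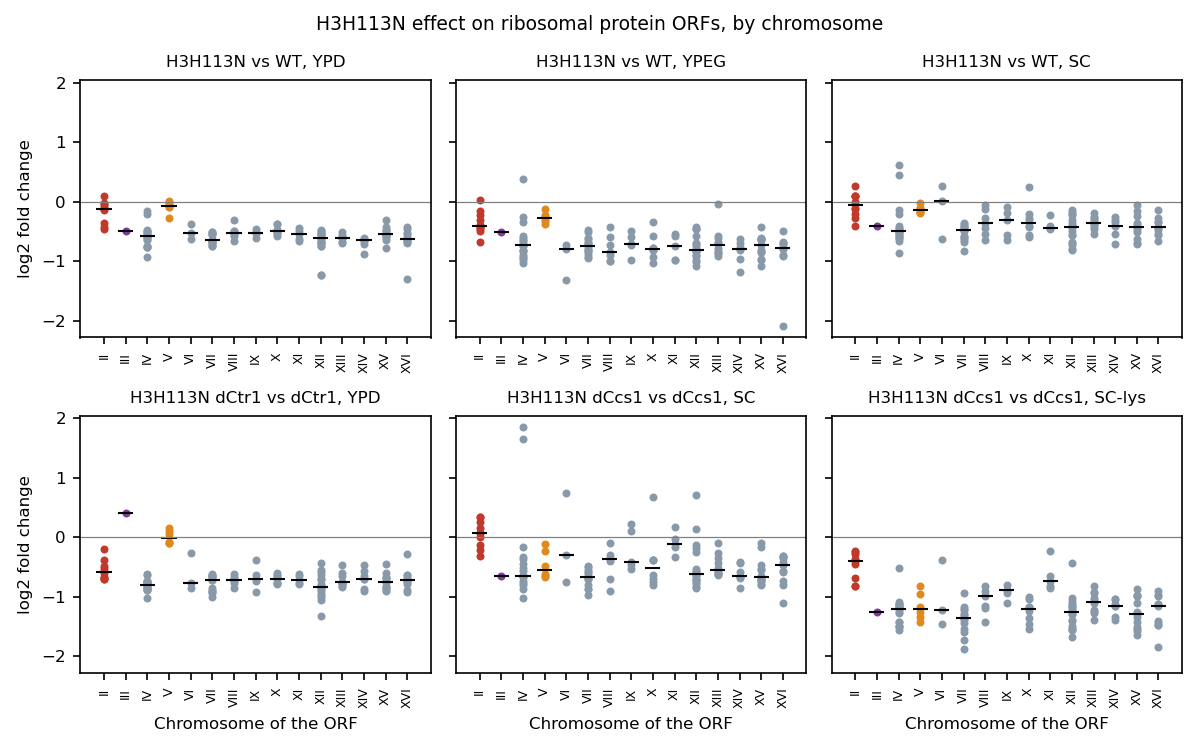
Log2 fold change of each ribosomal protein ORF with H3H113N (y axis) by its chromosome (x axis), in the 6 settings; black lines are medians, with chromosomes II in red, V in orange, III in purple and others in grey. On II the median is -0.12 in YPD against 0.07 for dCcs1 strains in SC, and the purple point of RPS14A stands at 0.41 in the dCtr1 strains.

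Partners mostly fell together. In the average effect both copies were called lower in 51 of 59 pairs, and in 30 of the 33 pairs with at least 90% unique windows. The median difference between partners was 0.11 in size over all pairs and 0.08 in the 33. RPL26A and RPL26B were at -0.92 and -0.98.

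The 6 pairs with the largest differences among the 33 were RPS9, RPL21, RPL22, RPL27, RPL24 and RPS26. RPS9A fell by 1.13 and RPS9B, on chromosome II, by 0.45. RPL21A, on II, was at -0.25 ± 0.13 (adjusted p = 0.157), and RPL21B at -0.70 ± 0.15 (adjusted p = 0.00188). RPS26A fell by 0.70 and RPS26B, on V, by 0.45. With chromosomes centred these pairs were at -1.10 and -0.89 (RPS9), -0.69 and -0.68 (RPL21), and -0.58 and -0.81 (RPS26), so the gap shrank in RPS9 and RPL21 and turned in RPS26.

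The other 3 pairs have neither copy on II or V. RPL27A fell by 0.58 and RPL27B by 0.93, and RPL24A by 0.62 and RPL24B by 0.89, both pairs of large-subunit proteins. RPL22A fell by 0.84, while RPL22B was at -0.44 ± 0.17 (adjusted p = 0.0579). Whether partners differed was not tested in any pair.

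**Figure D4:**
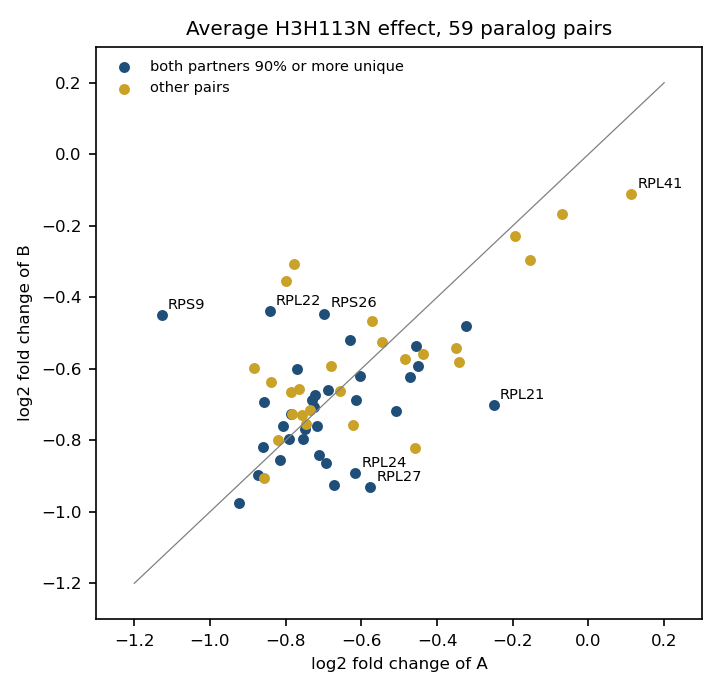
Average log2 change with H3H113N of the A copy (x axis) and the B copy (y axis) of the 59 pairs, with the line of equal change; blue pairs have at least 90% unique windows in both copies and yellow pairs do not. Most points lie near the line between -0.4 and -0.9; RPS9 lies above it (A at -1.13, B at -0.45) and RPL21 below it (A at -0.25, B at -0.70).

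The level of A relative to B, as the log2 ratio of RPKM, kept its sign over the libraries in some pairs and not in others. A had the higher mean in 32 pairs and B in 27. A was higher in all 28 libraries in 23 pairs and B in 12, while 24 pairs went both ways. The median size of the mean log2 ratio was 0.58, and 0.85 in the 33 pairs with unique windows. In 16 pairs the copies differed more than 2-fold. The range of the log2 ratio over the 28 libraries had a median of 1.13 over all pairs and 1.38 in the 33.

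The most skewed pairs were RPS9 at -3.87 (RPS9A the lower), RPL15 at 3.55, RPL22 at 3.28 and RPS28 at 2.80. RPL15A and RPL15B encode a large-subunit protein contacting ribosomal RNA, and RPS28 is at the mRNA exit. The least skewed were RPL35 at 0.00, RPS6 at 0.02, RPL12 at -0.04 and RPL20 at -0.05. RPL35 and RPS6 have only 18.7% and 27.3% unique windows, so shared reads could set their ratio, while RPL20 has 93.8% and RPL12 89.5%.

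Some ratios differed between SC and YPEG, which share a kit. RPS22A over RPS22B had a log2 ratio of 1.52 ± 0.40 (SD, n = 3) in WT-SC and 0.16 ± 0.16 (n = 2) in WT-YPEG. In H3H113N it was 1.94 ± 0.53 (n = 3) in SC and -0.12 ± 0.63 (n = 2) in YPEG. In YPD, made with the other kit, it was 2.09 ± 0.26 (n = 2) in WT and 2.88 ± 0.15 (n = 2) in H3H113N. RPL9A over RPL9B turned from 1.19 ± 0.22 (n = 3) in WT-SC to -0.52 ± 0.26 (n = 2) in WT-YPEG, and its YPEG values lay below those of all SC libraries. RPL9 has 86.0% unique windows, so its values are less certain between A and B.

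RPL22A over RPL22B was lowest in H3H113N-dCcs1-SC-lys, at 1.40 ± 0.14 (n = 2), against 2.71 ± 0.61 (n = 2) in dCcs1-SC-lys, made with the same kit. In SC-lys RPL22A went from 1295 and 915 RPKM to 558 and 379, and RPL22B from 267 and 104 to 197 and 154, so RPL22A separated the groups and RPL22B did not. The widest range of all pairs was that of RPS28, 4.11 on the log2 scale, from 0.87 in an H3H113N-dCcs1-SC-lys library to 4.98 in an H3H113N-SC library, which differ in kit as well as medium. RPS28B, the lower copy, ranged from 23.5 to 635 RPKM with a replicate SD of 0.64 on the log2 scale.

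**Figure D5:**
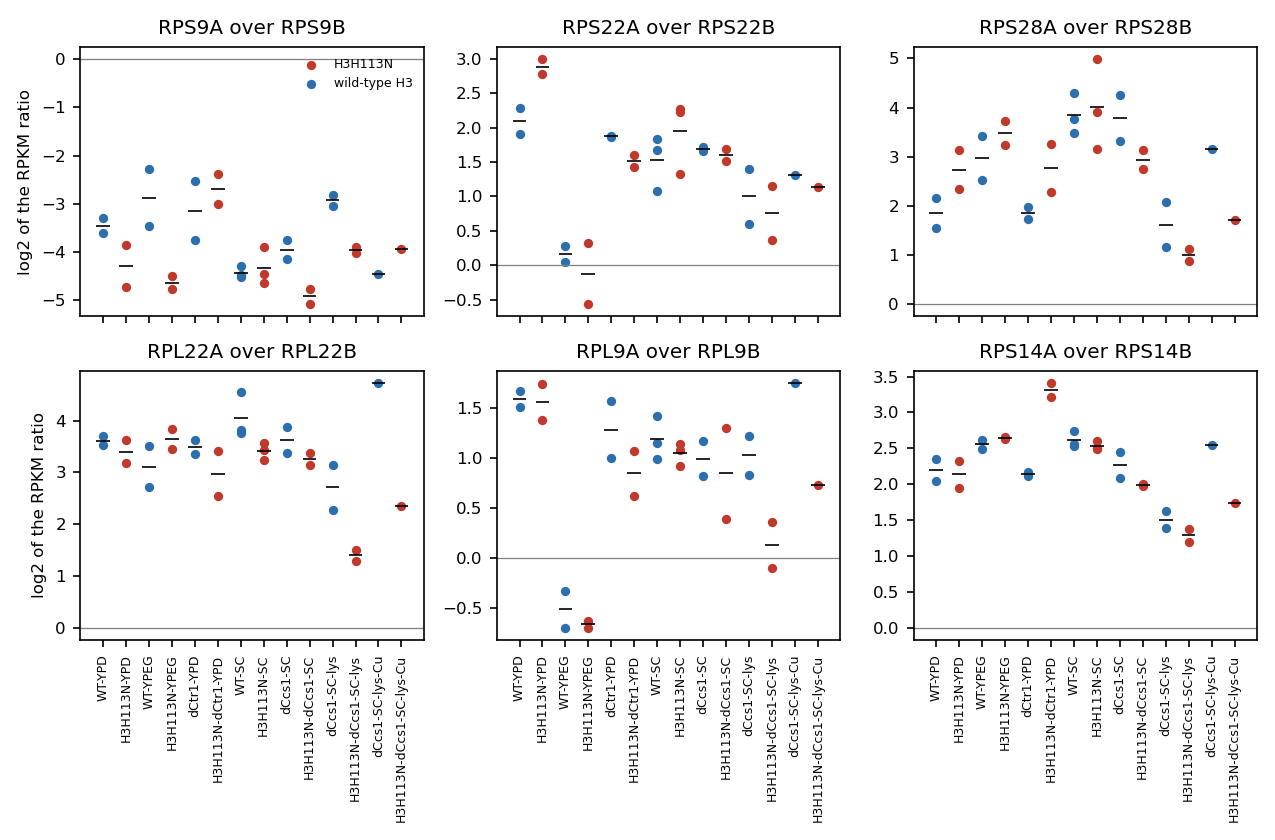
Log2 ratio of the RPKM of the A copy over the B copy (y axis) per library, by group (x axis), for 6 pairs; red is H3H113N, blue wild-type H3, and lines are group means. RPS22 and RPL9 are lowest in YPEG (0.16 and -0.52 in WT), RPS14 is highest in H3H113N-dCtr1-YPD, and RPL22 lowest in H3H113N-dCcs1-SC-lys at 1.40. RPL9 and RPS14 have 86.0% and 88.0% unique windows.

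YPEG and SC libraries were made with the same kit, but their cultures also differed in starting density and doublings, which cannot be told apart from the medium. In WT, 7 ribosomal protein ORFs were lower in YPEG and 0 higher, beside 4.72% of all ORFs lower, 6.75% higher and 11.5% either way, with a median of -0.53. In H3H113N 43 were lower and 0 higher, beside 4.81% of all lower, 6.13% higher and 10.9% either way, with a median of -0.88. These counts depend on replicate 3 of SC: without it 50 were called in WT and 94 in H3H113N. Without YPEG replicate 1 it was 0 in both, and fitted on the 5 libraries alone it was 0 and 4.

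RPL9A had the largest called fall in both backgrounds. It had 402 and 655 RPKM in WT-YPEG and 1259.9, 1376 and 752 in WT-SC (-1.28 ± 0.35, adjusted p = 0.0236). It had 258 and 332 in H3H113N-YPEG and 1121, 1303 and 617 in H3H113N-SC (-1.78 ± 0.36, adjusted p = 0.0041). Its partner RPL9B was at 0.34 ± 0.35 (adjusted p = 0.591) in WT and -0.04 ± 0.36 (adjusted p = 0.954) in H3H113N. Both copies have 86.0% unique windows, below the 90% set for pairs of unique sequence.

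RPS25A, a head protein of the small subunit, had 1716 and 2621 RPKM in WT-YPEG and 3772, 4684.5 and 2898 in WT-SC (-0.98 ± 0.30, adjusted p = 0.0393). The other ORFs called in WT were RPS26B (-0.95), RPL43A (-0.92), RPL8B (-0.87), RPL3 (-0.87) and RPS26A, the smallest, which was named after its value was seen. In H3H113N, RPS22A fell by 1.62 ± 0.37 (adjusted p = 0.0102), RPL14B by 1.39, RPL21B by 1.34, RPL14A by 1.33 and RPL33B by 1.31. RPL14A and RPL14B have 51.4% unique windows, so their falls may not be separate.

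Among the 6 pairs of unique sequence with the largest partner difference in WT, both copies of RPS22 and of RPS9 went opposite ways without passing. RPS22A was at -0.998 ± 0.361 (adjusted p = 0.0863) and RPS22B at 0.41 ± 0.20 (adjusted p = 0.212). RPS9A was at 0.88 ± 0.30 (adjusted p = 0.0677) and RPS9B at -0.67 ± 0.30 (adjusted p = 0.161). RPL8A was at 0.05 ± 0.30 (adjusted p = 0.948) beside the called RPL8B. RPL22A and RPL22B were at -0.65 and 0.18, RPS28A and RPS28B at -0.51 and 0.21, and RPS27A and RPS27B at 0.32 and -0.35, none of them called. Without SC replicate 3, RPL8A, RPL22B and RPS28B were below 0.

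The deletions were also compared with WT directly. For dCtr1 against WT in YPD the median was -0.38 and all 137 ORFs were below 0, beside 51.3% of all tested ORFs. The shares of reads, 11.7% and 13.0% against 14.7% and 16.2%, did not overlap. edgeR and DESeq2 both called 0 of 137, beside 0.0455% of all ORFs by edgeR, and 1 had an unadjusted p under 0.05, as did 207 of all 6592. For dCcs1 against WT in SC the median was 0.15, with 24 of 137 below 0, beside 53.2% of all tested ORFs. Again 0 were called by both tools, beside 0.0152% of all, and 0 had an unadjusted p under 0.05, against 144 of all 6592.

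With 75 µM CuSO4 in SC-lys there was 1 library per strain and no test. The labels call growth exponential for dCcs1 with copper and very slow for the other lysine-free cultures. Growth therefore cannot be told apart from copper within dCcs1, or from H3 genotype among the copper libraries. Ribosomal protein ORFs took 9.47% of reads in dCcs1 and 6.28% in H3H113N-dCcs1. The log2 ratio of RPKM to the mean of both SC-lys libraries had a median of -0.08 in dCcs1, with 84 ORFs below and 53 above 0, and of 0.17 in H3H113N-dCcs1, with 17 below and 120 above. Against single SC-lys libraries the dCcs1 median was -0.21 or 0.13, so its sign depends on the library. H3H113N-dCcs1 over dCcs1, both with copper, had a median of -0.58, with 124 ORFs lower, and 13 at least 2-fold lower beside 2.63% of all ORFs. RPL9A was the lowest at -1.43, and RPL22B, at 41.1 RPKM in dCcs1 and 112.9 in H3H113N-dCcs1, the highest at 1.46.

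Genes that regulate or accompany ribosomal proteins were followed in 4 lists in the average H3H113N effect. Of all tested ORFs, 15.2% were called lower and 18.5% higher in this comparison. Of 11 transcription factors and cofactors, 3 were lower and 1 was higher. HMO1, the high-mobility-group protein bound at many of these promoters, had 283 ± 16.7 RPKM (SD, n = 2) in WT-YPD and 142 ± 25.3 (n = 2) in H3H113N-YPD, and its average change was -0.95 ± 0.09 (adjusted p = 1.05e-06). CRF1, a corepressor that competes with Ifh1 for Fhl1, had 9.01 ± 0.59 in WT-YPD and 15.4 ± 0.82 in H3H113N-YPD (n = 2 each), and its average change was 0.71 ± 0.11. CBF1 was at -0.42 and the deacetylase RPD3 at -0.25, and with scaling to library totals neither passed. ESA1 was then called higher (0.32). With chromosomes centred RPD3 did not pass (edgeR adjusted p = 0.19), and REB1 went from 0.05 to -0.40 and was called lower (edgeR adjusted p = 0.0229).

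RAP1 was at -0.32 ± 0.13 (adjusted p = 0.0669), FHL1 at 0.00 ± 0.13 (adjusted p = 0.997), IFH1 at -0.06 ± 0.35 (adjusted p = 0.932) and SFP1 at -0.01 ± 0.09 (adjusted p = 0.935). The last 3 turned above 0 with scaling to library totals. Of 12 signalling genes, 1, the casein kinase subunit gene CKA2, was lower (-0.51). With scaling to library totals KOG1 was also called, as higher (0.30). Of 13 listed chaperones and assembly factors, not all of them dedicated to ribosomal proteins, 5 were lower and 0 higher. With scaling to library totals 3 were lower, and SYO1 and RRB1 did not pass. The 5 were SYO1 (-0.78), EGD1 (-0.76), EGD2 (-0.75), RRB1 (-0.66), a chaperone of Rpl3, and TSR4 (-0.56), a chaperone of Rps2. SYO1 did not pass with chromosomes centred either (edgeR adjusted p = 0.0722).

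Of 20 translation factors and ribosome-bound proteins, 17 were lower and 0 higher, or 11 when scaled to library totals. The 17 include copies named as pairs: EFT1 and EFT2 (-0.67 and -0.68), TEF1 and TEF2 (-0.36 and -0.31), TIF1 and TIF2 (-0.51 and -0.53), and SSB1 and SSB2. The unique windows of these genes were not computed, so the calls of 2 copies may not be separate. SSB1 and SSB2, chaperones of nascent chains, were at -0.89 and -0.83, ASC1, a small-subunit scaffold, at -0.87, the elongation factor gene YEF3 at -0.77 and STM1, which binds idle ribosomes, at -0.77. The medians of the 4 lists were -0.06, -0.13, -0.53 and -0.54, beside 0.00 for all tested ORFs.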

How the data were processed

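Poly(A)+ RNA was read as single-end reads of 50 nt. The authors deposited raw read counts per ORF, and RPKM per ORF from the same counts and the summed exon length; RPKM recomputed from total counts matched within a relative difference of 3.8e-09. Strand was not used, per the labels' protocols, so overlapping and antisense genes cannot be separated. TopHat2 2.0.9 and builds R64 and sacCer3 are named in the submitters' processing notes; the counting tool and the handling of reads with several matches are not given in the sources used here. Starts and coding lengths of all 137 ORFs equalled RefSeq R64, from which sequences, 50-nt window uniqueness and motifs were computed with Python 3.11.15, pandas 2.3.3 and Biopython 1.88; figures used matplotlib 3.10.9.

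The main test was edgeR 4.0.16 (R 4.3.3) quasi-likelihood on the counts of 26 libraries in 12 groups, with TMM scaling, a mean RPKM of at least 1 (6592 ORFs) and Benjamini-Hochberg adjustment over all of them at 0.05. SE is the size of the log2 change over the square root of F. The 2 copper libraries, 1 per strain, were compared by RPKM only. Total counts were 1168159 to 6738018. Alternatives were DESeq2 1.42.0, other scalings, no filter, centring of each chromosome, a replicate block, fits on fewer groups and leaving out each library. The test was checked on simulated counts for the YPD comparison, where it recovered few of the smaller changes.

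The members follow from gene names and use no measured value, but this gene family and the gene lists were chosen with earlier results of these data known. Genes named are, per comparison, the 6 largest called rises and falls, the 6 pairs of unique sequence with the largest partner difference (average, WT YPEG against SC, and SC-lys minus SC), the 4 most and least skewed pairs, the 5 highest and lowest ORFs and called list genes with RAP1, FHL1, IFH1, SFP1 and HMO1; others were named after their values were seen. In SC, WT and H3H113N replicates with the same number deviated together (r of 0.57, 0.43 and 0.76), so the numbers pair these libraries, a link taken from the data and not from the labels. Some results that these rules select are not reported here.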

Additional observations from a re-analysis of the deposited data

Results flagged for a closer look

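A rule that compared settings flagged 3 ORFs whose H3H113N changes had opposite signs. The share of all ORFs that it would flag is not given here, and the differences were not tested. Other ribosomal protein ORFs also had opposite signs, such as RPL29, at 0.74 for H3H113N-dCcs1 in SC and -0.85 for H3H113N-dCtr1 in YPD. RPL21A was at 0.07 on the log2 scale for H3H113N-dCcs1 in SC and at -0.67 for H3H113N-dCtr1 in YPD, a difference of 0.73. RPS27A was at 0.17 for H3H113N-dCcs1 in SC, above its values in YPD (-0.63, a difference of 0.79), in YPEG (-0.99, a difference of 1.15) and with CTR1 deleted (-0.65, a difference of 0.82). RPS28B was at 0.71 for H3H113N-dCcs1 in SC, above YPD (-1.23, a difference of 1.94), YPEG (-1.08, a difference of 1.79) and the CTR1 deletion (-1.33, a difference of 2.04). RPL21A lies on chromosome II, where the median of other ORFs was 0.69 higher in H3H113N-dCcs1-SC and 0.09 higher in H3H113N-dCtr1-YPD. With each chromosome centred, RPL21A was at -0.63 and -0.76 in these 2 settings.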

How the results depend on the processing

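The average H3H113N count of 122 was 101 to 130 under the alternatives and 117 to 127 with each library left out. Counts in single comparisons moved more. Apart from what fewer samples or fewer libraries imply, the cause was not tested. The share of all ORFs called is not given beside the alternative counts in this paragraph. DESeq2 called 2 ORFs in YPD, 3 in YPEG, 4 in SC, 5 for dCtr1 strains, 16 for WT YPEG against SC and 77 for H3H113N. Library totals gave 0 in SC, 46 in SC-lys and 3 for WT YPEG against SC, where median-ratio scaling gave 4. Centring each chromosome gave 0 in SC. Fits on the groups compared gave 0 in YPD, 9 in YPEG, 0 in SC, 0 in SC-lys, and 0 and 4 for YPEG against SC in WT and H3H113N. The replicate block gave 2 in YPD, 32 in YPEG, 3 in SC, 23 for dCtr1 strains, 5 for dCcs1 strains in SC, 122 in SC-lys, 127 in the average, and 36 and 98 for YPEG against SC. Beyond WT and H3H113N in SC, same numbers are not shown to pair libraries (r of 0.12 to 0.65 between H3H113N groups and their partners, 2 pairs each). For dCcs1 against WT in SC r was 0.61 for replicate 1 and -0.46 for replicate 2, which deviated with WT replicate 3 (0.72). For dCtr1 against WT r was -0.47, and crossing the numbers, chosen after seeing the data, called 0. Leaving out SC replicate 3, also chosen then, gave 0 in SC, and 50 and 94 for YPEG against SC.

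With each library left out, counts ran from 0 to 1 in YPD and in YPEG, 0 to 3 in SC, 4 to 45 in SC-lys, 0 to 42 for WT and 0 to 68 for H3H113N between YPEG and SC. Median copper ratios ran from -0.21 to 0.13 in dCcs1 and 0.07 to 0.34 in H3H113N-dCcs1. The median A over B skew was 0.58 over all pairs and 0.85 over those with unique sequence.

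Uncalled values turned sign. For WT YPEG against SC without SC replicate 3, RPL22B was at -0.10, RPL8A at -0.15 and RPS28B at -0.070; with each library left out they ran from -0.10 to 0.57, -0.15 to 0.26 and -0.071 to 0.42. For SC-lys minus SC, library totals gave 0.0002 for RPL13A and 0.0077 for RPL22B, and the block 0.045 for RPL22B; with each library left out RPL13A ran from -0.37 to 0.22, RPL22B from -0.62 to 0.74 and RPL8A from -0.65 to 0.31. Of the counts of called ORFs, copper ratios and pair skew recomputed, 52 moved and 134 did not. Of the single-gene values and medians over the ORFs, 1264 kept direction and call, 76 lost and 18 gained a call, and 4 moved. The 8 ORFs under 200 coding bases had a median replicate SD of 0.54 against 0.29 for the others.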
